A study of Mus musculus with 21 samples.

Results

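The GIMAP genes, which encode the GTPases of immunity-associated proteins, were described in the gastrocnemius of mice from 3 training groups. The members were the rows of the count table with the symbols Gimap1, Gimap3, Gimap4, Gimap5, Gimap6, Gimap7, Gimap8 and Gimap9, 8 of the 40853 genes listed. They were chosen by symbol, and the family was selected on the normalized counts of these same libraries compared over the 3 groups, so differences between groups in these genes are given as a description and not as tests. RNA came from the whole medial belly of the gastrocnemius of 21 female C57BL/6NJ mice, 1 library per mouse and 7 mice per group, and was sequenced as paired ends after poly(A) selection. Mice were 10 weeks old when the groups were formed. The Inactive group did not train, the Active group ran on a treadmill for 6 weeks, and the Activity Reduction group trained for 4 weeks and then did not train for 2 weeks. All 3 groups were of the same strain and genotype, and tissue was collected 48 to 72 h after a final maximal running test that mice of every group performed.

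GIMAP proteins bind GTP through a domain related to that of septins, and most are anchored to membranes inside the cell. The family is best known from lymphocytes, where its members affect the survival and death of T and B cells, and some members are also expressed in endothelial cells. Loss of Gimap5 leads to a shortage of peripheral T cells in rodents. Skeletal muscle fibres are not a known main source of these transcripts, so in whole muscle they are read beside markers of the other cells that the tissue holds.

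All 8 genes lie in 1 cluster of 123.684 kb on chromosome 6, at chr6:48624143-48747826 of GRCm39, the build to which the reads had been aligned. In GENCODE M39 the order is Gimap8, Gimap9, Gimap4, Gimap6, Gimap7, Gimap1, Gimap5 and Gimap3. Gimap6 and Gimap3 are on the reverse strand and the other 6 are on the forward strand, and all are annotated as protein coding. The shared GTPase fold is shown by the coding sequence of the loop that holds the phosphates of the bound nucleotide, which a script found once in the coding exons of 7 genes and 3 times in Gimap8. The sequences below run 5′ to 3′ on the coding strand, and the capitals mark the codons for glycine, lysine, and serine or threonine that end the loop.
Gimap6, chr6:48679684-48679707: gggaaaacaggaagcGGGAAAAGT
Gimap4, chr6:48667355-48667378: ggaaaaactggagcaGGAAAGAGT
Gimap1, chr6:48719486-48719509: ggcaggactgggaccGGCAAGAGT
Gimap9, chr6:48654457-48654480: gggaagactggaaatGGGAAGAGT
Gimap7, chr6:48700458-48700481: gggaaaacaggaagtGGAAAGAGC
Gimap8 loop 1, chr6:48627190-48627213: gggaaacagggcgcaGGCAAAAGT
Gimap8 loop 2, chr6:48633053-48633076: gggaagcgtggtgttGGGAAAAGT
Gimap8 loop 3, chr6:48635680-48635703: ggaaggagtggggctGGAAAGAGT
Gimap5, chr6:48729528-48729551: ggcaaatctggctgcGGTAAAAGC
Gimap3, chr6:48742821-48742844: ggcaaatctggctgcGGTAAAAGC
The loops of Gimap5 and Gimap3 were identical over all 24 bases. Gimap8 had the longest coding sequence, 2064 bases, and the coding sequences of the other members were between 873 and 984 bases long.

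Gimap5 and Gimap3 were also the most alike over their whole coding sequences, with 90.4% of 895 aligned bases identical. The other pairs of members lay between 55.7% and 66.6%. A stretch of 720 bases matched between the transcripts of Gimap5 and Gimap3 at up to 97.9% identity, which was 36.4% of the Gimap5 transcript and 32.9% of the Gimap3 transcript. Counts of these 2 genes are therefore uncertain where reads fell in that stretch. Exons of Gimap1 overlapped the antisense gene Gimap1os over 39.1% of their length, and whether the reads had been counted by strand is not given in the sources used here. The annotated gene Gm28053 shared between 3.48% and 5.80% of the exon bases of Gimap7, Gimap1 and Gimap5 on the same strand, and Gm68473 overlapped 5.17% of those of Gimap8 on the opposite strand. The symbols of these 3 overlapping genes were not listed in the count table, so they were not analysed here.

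The 250 bases before the start of the canonical transcript were taken from the reference genome for all 8 members, and 4 short motifs were searched on both strands. The ETS core AGGAAG was present in 6 members (Gimap9, Gimap4, Gimap7, Gimap1, Gimap5 and Gimap3) and in 28.9% of 21757 promoters of the same length. The RUNX core TGTGGT was present in Gimap4, Gimap7 and Gimap1 and in 13.0% of all promoters. The GATA motif AGATAA was found in 0 members and in 9.61% of all promoters, and the TATA box TATAAA was found in Gimap6 and in 11.9%. The upstream sequences of the members with the highest levels, Gimap6 and Gimap4, are printed with these matches in capitals, read 5′ to 3′ on the strand of the gene. In Gimap6 the match is the reverse complement of the TATA box, and in Gimap4 the first match is the reverse complement of the RUNX core and the other is the ETS core.
Gimap6, chr6:48685319-48685568, reverse strand: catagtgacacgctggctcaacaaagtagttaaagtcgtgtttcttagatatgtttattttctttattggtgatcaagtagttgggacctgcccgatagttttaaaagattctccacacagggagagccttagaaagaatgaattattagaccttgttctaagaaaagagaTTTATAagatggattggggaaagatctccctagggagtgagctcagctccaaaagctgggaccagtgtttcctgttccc
Gimap4, chr6:48661229-48661478, forward strand: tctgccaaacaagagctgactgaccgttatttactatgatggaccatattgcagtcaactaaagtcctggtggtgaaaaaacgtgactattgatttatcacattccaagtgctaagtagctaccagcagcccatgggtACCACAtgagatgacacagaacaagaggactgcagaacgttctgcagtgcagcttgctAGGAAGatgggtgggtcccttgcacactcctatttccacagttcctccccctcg
GC content was 40.8% before Gimap6 and 47.6% before Gimap4, beside a median of 53.2% over all promoters.

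The total count of a library lay between 38482455 and 59785132. By their counts of 24 genes with liver as the main site of expression, 8 libraries formed a class with more such transcripts (replicates 1 to 5 of the Active group, 1 and 2 of the Activity Reduction group, and 1 of the Inactive group) and 13 a class with fewer. In the numbering of the samples these 8 came first and the 13 after them, so the division also follows that order. What the order stands for is not given in the sources used here. Values of the members are therefore also given within this division.

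The members spanned a wide range of levels, from Gimap6 down to Gimap7. As normalized counts (counts divided by DESeq2's size factors) per kb of the canonical transcript, the mean level over the 21 mice was 261 ± 34.9 (SD) for Gimap6 and 148 ± 25.2 for Gimap4. Gimap1 followed with 85.6 ± 14.4 and Gimap8 with 71.1 ± 8.70, and these neighbours lay close together, with Gimap1 above Gimap8 in 18 of 21 mice. Gimap5 had 32.3 ± 9.28 and Gimap9 had 21.6 ± 8.71, and their ranges of 17.5 to 48.4 and 8.04 to 37.8 overlapped, with Gimap5 above Gimap9 in 19 of 21 mice. Gimap3 was far lower with 4.20 ± 1.98. Each of the other neighbours in this order kept its place in 21 of 21 mice, and the middle of the cluster held both the gene with the highest level, Gimap6, and the gene with the lowest, Gimap7.

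**Figure D1:**
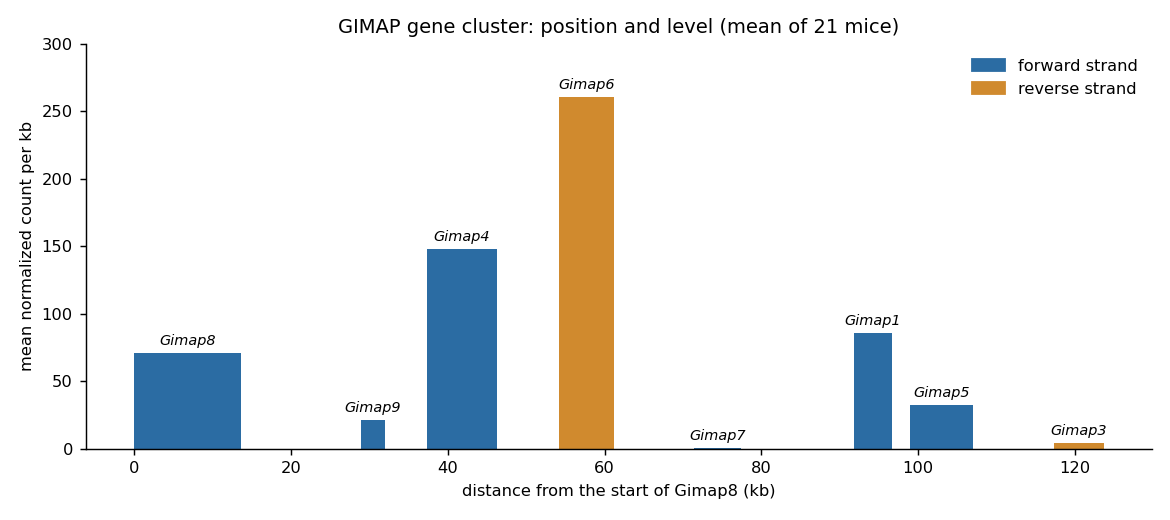
Mean normalized count per kb of transcript over 21 mice (y axis) for each GIMAP gene, drawn at its place along the cluster in kb from the start of Gimap8 (x axis), with forward-strand genes in blue and reverse-strand genes in orange. Gimap6 stands highest at 261 per kb, and its neighbour Gimap7 is close to 0.

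Gimap7 had 8 counts in all 21 libraries together. They were 2 in Inactive replicate 1, 4 in Inactive replicate 4 and 2 in Activity Reduction replicate 7, and the other 18 libraries had 0. A count of 0 allows up to 3 counts in a library, between 0.0502 and 0.0780 CPM (counts scaled to the library total) at these depths, so Gimap7 was at the limit of detection and no fold change is given. All 3 counts above 0 were even, and if each pair of mates had been counted as 2, which the sources used here do not give, the limit would be 6 counts, or between 0.1004 and 0.156 CPM. It was 1 of the members that did not pass the filter on low counts, and the other 7 were fitted.

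Levels of the members were set beside markers of the cells in which the family is known. Of 15 T cell markers, 12 had a mean under 10 normalized counts and 3 passed the filter on low counts, with the highest means in Cd247 (72.5), Zap70 (25.3) and Cd3e (20.7), which encode parts of the T cell receptor complex and the kinase it recruits. The coreceptors Cd4 and Cd8a, named after their values were seen, had means of 2.84 and 1.87. Cd3d and Cd3g, other parts of the T cell receptor complex and also named after their values were seen, had means of 0.70 and 1.53. They were at 0 in 15 and 8 of the 21 libraries. The median level of the T cell markers was 1.47 normalized counts per kb, and that of the B cell and NK cell markers was 0.918 and 0.903. No T, B or NK cell marker was at 0 in every library. Of the B cell list only Ighm, the heavy chain of IgM, was high, at 309.6 per kb.

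Endothelial markers were abundant. The 20 genes of that list lay between 120.8 and 804 normalized counts per kb with a median of 185. Macrophage markers lay between 5.40 and 204 per kb with a median of 49.9, and lymphatic endothelial markers between 6.39 and 95.3 with a median of 26.8. Mural markers lay between 135 and 3152 per kb with a median of 222, fibroblast markers between 92.0 and 865 with a median of 204, adipocyte markers between 31.1 and 1164 with a median of 79.6, and platelet and erythroid markers between 6.05 and 2486 with a median of 42.3. The levels of Gimap6 and Gimap4 fell within the range of the endothelial list and within those of these 4 lists as well. Lying in that range was thus not particular to endothelial markers. Gimap4 was also within the macrophage range. Gimap1, Gimap8, Gimap5 and Gimap9 were below the endothelial range. They were within the ranges of the macrophage, lymphatic endothelial, and platelet and erythroid lists, so this too was not particular to macrophage markers. Gimap1, Gimap8 and Gimap5 were also within the adipocyte range. Gimap3 and Gimap7 were below the ranges of all these lists. Muscle fibre markers, which the tissue label calls for, had by far the highest median, 92598 per kb, with a range of 173 to 783339. The lowest of them, Mylpf, named after its value was seen, lay below Gimap6. Why Mylpf was counted so little was not tested. In bulk tissue, fewer cells of a type and less RNA per cell cannot be told apart.

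**Figure D2:**
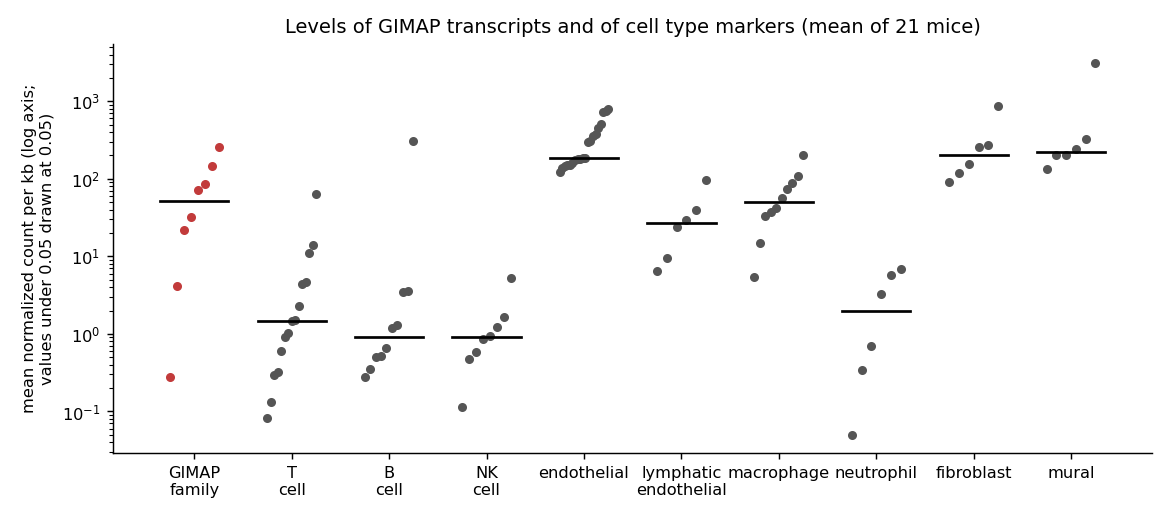
Mean normalized count per kb of transcript over 21 mice on a log axis, with 1 point per gene and a bar at the median of each list, for the GIMAP genes (red) and for markers of 9 cell types (grey). Gimap6 and Gimap4 lie in the range of the endothelial markers and equally in those of the mural and fibroblast markers, and most T, B and NK cell markers lie under 5 per kb.

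Gimap6, which takes part in autophagy through binding to GABARAP proteins, was highest in the Active group. Its normalized count was 428 at the lowest, 479 at the median and 514 at the highest in Inactive mice, and the corresponding values were 513, 579 and 613 in Active mice and 394, 457 and 509.7 in Activity Reduction mice. All 7 Activity Reduction mice lay below all 7 Active mice, and 6 of 7 Active mice lay above every Inactive mouse, the exception being Active replicate 7. The means ± SD were 476 ± 32.5, 579 ± 33.6 and 448 ± 40.6 (n = 7 in each group, in the order Inactive, Active, Activity Reduction). The log2 fold change was 0.29 (standard error 0.0620) for Active against Inactive, -0.37 (standard error 0.0621) for Activity Reduction against Active and -0.08 (standard error 0.0621) for Activity Reduction against Inactive. Between the Activity Reduction and Active groups, 0.112% of the 16129 genes tested were lower without overlap in this way, and 0.180% were higher. No other member was without overlap, and for Active and Activity Reduction against Inactive 0.0434% and 0.0558% of all genes were higher without overlap, and 0.211% and 0.0620% were lower.

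Gimap4, which affects how fast T cells die once apoptosis has begun, had a similar order of groups with more overlap. Its normalized count ran from 188 through a median of 259.7 to 288 in Inactive mice, from 232 through 321.9 to 374 in Active mice and from 202 through 257 to 291 in Activity Reduction mice. Here too 6 of 7 Active mice lay above the highest Inactive mouse, with replicate 7 again the lowest. The means ± SD were 251 ± 33.0, 313.3 ± 47.6 and 251 ± 28.5. The Activity Reduction mean differed from the Inactive mean by less than the spread within either group.

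Gimap8, the member with 3 GTP-binding loops, was even among Active mice, between 266 and 299.6 normalized counts, a coefficient of variation of 4.59%. In Inactive mice it ran from 196 to 302 with a median of 252, and in Activity Reduction mice from 226 to 321.3 with a median of 256. No Active mouse lay above the highest Inactive mouse, while 5 of 7 Inactive mice and 6 of 7 Activity Reduction mice lay below the lowest Active mouse. Gimap1, needed for mature T and B cells, had means ± SD of 142 ± 20.96, 156 ± 19.0 and 126 ± 23.5. Its ranges of 109 to 166, 137 to 185 and 86.1 to 151 overlapped between all groups.

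Gimap5 protects lymphocytes from apoptosis, and Gimap3 is its closest relative. Gimap5 ran from 38.4 through a median of 60.5 to 74.1 normalized counts in Inactive mice, from 54.9 through 86.2 to 95.8 in Active mice and from 34.6 through 51.1 to 76.0 in Activity Reduction mice. Of the 7 Active mice, 5 lay above the highest mouse of both other groups, and replicate 7 was the lowest. The means ± SD were 56.9 ± 11.9, 81.4 ± 15.4 and 53.5 ± 14.4. Gimap3 was counted only 2 to 18 times in a library, and its means ± SD were 9.59 ± 4.20, 12.2 ± 3.23 and 5.76 ± 3.14. Below the lowest Active mouse lay 6 of 7 Activity Reduction mice, the exception being replicate 2 with 11.8, and 1 of 7 Inactive mice. For both genes these values include reads that the counting may have divided between them.

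Gimap9 had means ± SD of 26.7 ± 12.9, 35.8 ± 11.97 and 28.2 ± 11.4, and its ranges of 11.2 to 49.1, 18.5 to 52.9 and 14.8 to 43.4 overlapped almost fully.

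**Figure D3:**
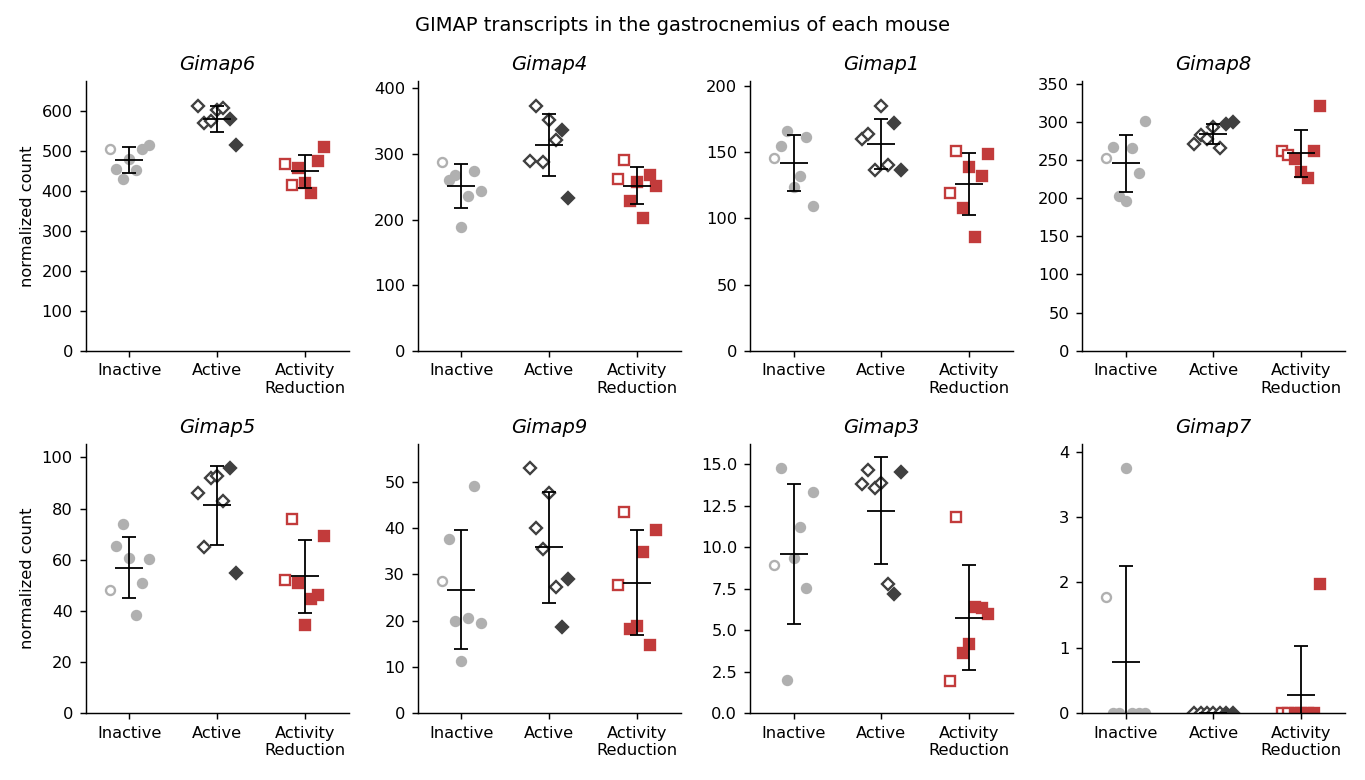
Normalized count of each GIMAP gene (y axis, from 0, a scale of its own in each panel) in every mouse of the Inactive (circles), Active (diamonds) and Activity Reduction (squares) groups, with open symbols for the 8 libraries that held more liver transcripts and bars for the mean ± SD of 7 mice. The Gimap6 points of the Activity Reduction group lie below all those of the Active group, and the groups overlap in every other panel.

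Over the 7 members fitted, the log2 fold change of Active against Inactive was above 0 in 7, between 0.15 (Gimap1) and 0.52 (Gimap5), with a median of 0.32. Of all genes tested, 51.6% lay above 0 and the median was 0.01. Activity Reduction against Active gave values below 0 in 7 of 7, from -1.06 (Gimap3) to -0.14 (Gimap8), with a median of -0.34, where 50.2% of all genes lay below 0 and 49.8% above. Activity Reduction against Inactive gave 3 values above 0 and 4 below, with a median of -0.08, where 52.2% of all genes lay above 0. The first and second of these comparisons share the 7 Active mice, so their opposite signs are not separate observations.

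With edgeR's quasi-likelihood test and Benjamini-Hochberg adjustment over all genes, an adjusted p-value under 0.05 and a log2 fold change over 0.25 in either direction were reached by 0 members in each comparison, beside 0% of all genes for Active against Inactive, 0% for Activity Reduction against Active and 0.0124% for Activity Reduction against Inactive. At an unadjusted p-value under 0.05 there were 4 members higher in Active than in Inactive mice, Gimap4, Gimap5, Gimap6 and Gimap8 (6.18% of all genes), and 0 lower (4.69%). There were 5 lower in Activity Reduction than in Active mice, Gimap1, Gimap3, Gimap4, Gimap5 and Gimap6 (6.44%), and 0 higher (6.89%), and there were 0 in either direction between Activity Reduction and Inactive mice (4.19% higher, 3.54% lower). DESeq2 on the 3 groups passed only Gimap6 for Active against Inactive (0.424% of 13457 genes) and for Activity Reduction against Active (0.869% of 13457). It passed 0 members for Activity Reduction against Inactive (0.252% of 9109). Fitted on only the 2 groups compared, DESeq2 passed Gimap6 in the same comparisons (0.553% of 13555 genes and 0.906% of 14570). In the third it passed 0 members (0.302% of 14575). These shares are over the genes to which DESeq2 gave an adjusted p-value. Gimap3 and Gimap7 were given none in any of these fits, so they could not pass. For Activity Reduction against Inactive on the 3 groups, Gimap1, Gimap5 and Gimap9 were given none either. The members were chosen for these same contrasts, so nothing is read from these shares.

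**Figure D4:**
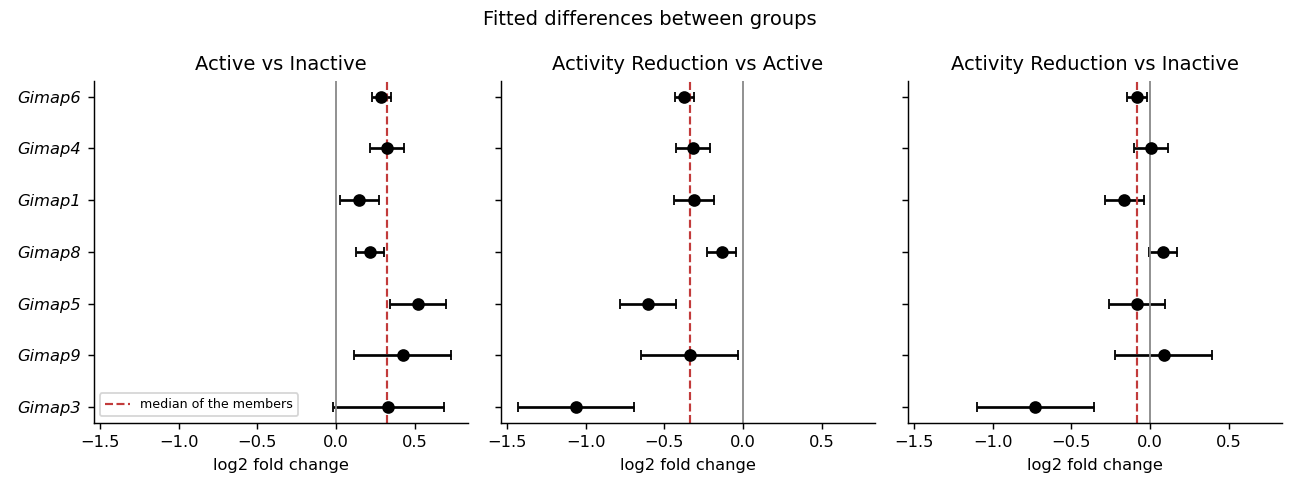
Log2 fold change (x axis) with its standard error (bars) of the 7 members fitted, in edgeR's model of 21 libraries, for the 3 comparisons, with a solid line at 0 and a dashed line at the median of the members. All points lie to the right of 0 for Active against Inactive, all to the left for Activity Reduction against Active, and on both sides for Activity Reduction against Inactive.

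The liver division was uneven between the groups, as 5 of 7 Active libraries but 1 of 7 Inactive and 2 of 7 Activity Reduction libraries held more liver transcripts. The members were not used to make this division, so it could be tested on them. In edgeR's model with the groups, 0 of 7 members passed between libraries with more and fewer liver transcripts, beside 4.20% of all genes, and 1, Gimap4, had an unadjusted p-value under 0.05 (7.80% of all genes in that direction, 4.82% in the other), with a log2 difference of 0.21 (standard error 0.0932) and an adjusted p-value of 0.337. Gimap6 differed by 0.06 (standard error 0.0614). The difference was below 0 for 1 of 7 members, Gimap8, beside 51.8% of all genes. Of the marker lists other than liver, 1 gene passed this test, Prox1 of the 6 lymphatic endothelial markers. Prox1 was higher by 0.56 in the libraries with more liver transcripts (adjusted p = 0.00174, edgeR with Benjamini-Hochberg adjustment). It was also the only 1 of these 6 at an unadjusted p-value under 0.05. Which cells its counts came from was not tested. With the division as a covariate, the median log2 fold change of the members was 0.22 for Active against Inactive and -0.28 for Activity Reduction against Active. The 4 and 5 members at an unadjusted p-value under 0.05 in these comparisons became 3 and 4 with the covariate, and 0 and 1 among the libraries with fewer liver transcripts. At that level, 997 and 1038 of the 16129 genes tested passed in the same directions, and 684 and 836 with the covariate. Among the libraries with fewer liver transcripts, 2 of them Active, it was 518 and 411 of 17175 genes. For Active against Inactive, the log2 fold change of Gimap4 went from 0.32 (standard error 0.105) to 0.20 (standard error 0.110), and that of Gimap9 from 0.42 (standard error 0.309) to 0.10 (standard error 0.345). For Activity Reduction against Active, Gimap9 went from -0.34 (standard error 0.309) to -0.11 (standard error 0.322). Among the 13 libraries with fewer liver transcripts (6 Inactive, 2 Active and 5 Activity Reduction mice) the log2 ratio of mean Gimap6 counts was 0.21 for Active against Inactive and -0.28 for Activity Reduction against Active. Among the other 8 libraries (1, 5 and 2 mice) it was 0.24 and -0.43. Gimap9 was the exception, with ratios of -0.15 and 0.09 among the 13 libraries, opposite in sign to its values over all mice.

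Levels of markers of other cell types differed between groups to a varying degree. Summed over the list, T cell markers lay between 2.38 and 3.70 CPM in Inactive mice, 2.28 and 3.46 in Active mice and 2.52 and 3.89 in Activity Reduction mice, while the summed GIMAP counts lay between 22.1 and 26.6, 25.7 and 33.1, and 19.6 and 27.3 CPM. Endothelial markers summed to between 467 and 559, 503 and 632, and 447 and 529 CPM in the same order. For Active against Inactive the median log2 fold change was 0.06 over 20 endothelial markers, 0.36 over 10 macrophage markers, 0.57 over 6 lymphatic endothelial markers, 0.26 over 6 fibroblast markers, 0.11 over 6 mural markers and 1.17 over the 24 liver genes. For Activity Reduction against Active it was -0.06, -0.40, -0.30, -0.39, -0.04 and -0.93 in that order. Over 6 platelet and erythroid, 8 muscle fibre and 6 adipocyte markers the 2 medians were 0.24 and -0.12, 0.06 and 0.05, and 0.11 and -0.42. In edgeR's test 0 genes of any of these lists passed in a comparison of groups. At an unadjusted p-value under 0.05, the genes higher in Active than in Inactive mice (6.18% of all genes) were 5 of 20 endothelial, 4 of 6 lymphatic endothelial, 3 of 10 macrophage, 2 of 6 fibroblast, 2 of 6 platelet and erythroid, 1 of 8 muscle fibre and 4 of 24 liver genes, and 0 of the other lists. Those lower in Activity Reduction than in Active mice (6.44%) were 4 endothelial, 1 lymphatic endothelial, 3 macrophage, 5 fibroblast and 1 platelet and erythroid gene, and 0 of the other lists. DESeq2 on the 3 groups passed Kdr, Lyve1 and Csf1r, each lower in Activity Reduction than in Active mice. Their part in the values of the GIMAP genes was not tested.

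Genes that act with GIMAP proteins had medians near 0. The list of 12 holds the GABARAP proteins that Gimap6 binds, other autophagy genes, the kinase Gsk3b, and the BCL2 family that decides on mitochondrial apoptosis. Its median log2 fold change was -0.06 for Active against Inactive, 0.05 for Activity Reduction against Active and -0.01 for Activity Reduction against Inactive, and 0 of 12 passed in each with edgeR. At an unadjusted p-value under 0.05, 2 were lower in Active than in Inactive mice, Gabarap (log2 fold change -0.17) and the autophagosome gene Map1lc3b (-0.12), and 2 were higher in Activity Reduction than in Active mice, Gabarap (0.09) and the survival gene Mcl1 (0.12), beside 4.69% and 6.89% of all genes. Between Activity Reduction and Inactive mice Gabarapl1 was lower (-0.14) and Mcl1 higher (0.09) at the same level, beside 3.54% and 4.19% of all genes. These genes were named after their values were seen. Of 12 genes for lymphocyte survival and homing, 9 passed the filter on low counts, with medians of 0.21, -0.16 and 0.02 in the same order, and 0 passed the thresholds. At an unadjusted p-value under 0.05, 2 were higher in Active than in Inactive mice, Itgal (log2 fold change 0.66) and Jak3 (0.21), and 1 was lower, Stat5b (-0.18), again named after their values were seen, beside 6.18% and 4.69% of all genes. Between Activity Reduction and Active mice Stat5b was higher (0.20) and Jak3 lower (-0.21) at the same level, beside 6.89% and 6.44% of all genes, and between Activity Reduction and Inactive mice there were 0.

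Protein-coding neighbours of the cluster were read in the same fits. Before the cluster, AI854703, Zfp775 and Repin1 had log2 fold changes of -0.19, -0.03 and -0.05 for Active against Inactive and -0.04, -0.04 and 0.11 for Activity Reduction against Active. After it, the membrane protein genes Tmem176b and Tmem176a had 0.22 and 0.35, then -0.11 and -0.36. None of these 5 genes passed in any comparison, with adjusted p-values of at least 0.404 (edgeR with Benjamini-Hochberg adjustment). Aoc1 had under 1 normalized count on average. The symbols Gm44965, Gm45021, Aoc1l2 and Aoc1l1 were not listed in the count table, so these genes were not analysed here.

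Covariation among mice was read after the mean of each group had been subtracted, over the 21 mice. Of the 21 pairs of members, 18 had a Pearson's r above 0, with a range of -0.11 to 0.70 and a median of 0.24. Gimap1 and Gimap4 were the pair that passed adjustment over the 21 pairs, with r = 0.70 (permutation test, two-sided, p = 0.00041, adjusted p = 0.00861) and Spearman's rho = 0.71 (adjusted p = 0.00945). Without the 2 mice farthest from the median r was 0.70, and it was 0.73 among the 13 libraries with fewer liver transcripts and 0.64 among the other 8. Gimap6 had r = 0.44 with Gimap8 and 0.30 with Gimap4, neither of which passed adjustment. Within both liver divisions 10 of the 21 pairs were above 0. The sharing of 1 library by both genes of a pair, and its depth, enters each of these values. The permutations ran over all 21 mice after the group means had been subtracted. The p-values do not allow for that subtraction and may be too small.

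**Figure D5:**
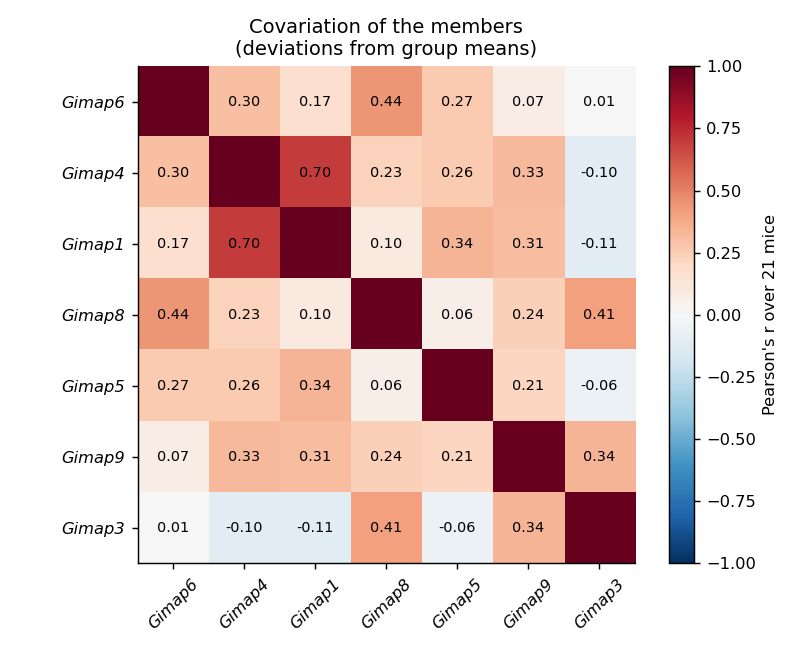
Pearson's r between each pair of GIMAP genes over 21 mice after subtraction of the group means, coloured from -1 (blue) to 1 (red). The pair of Gimap1 and Gimap4 stands out at 0.70, and the 3 pairs below 0 are those of Gimap3 with Gimap1, Gimap4 and Gimap5.

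The mean profile of the 7 members was set against the mean profiles of 12 gene lists in the same way. None passed adjustment over the 12 relations. For the endothelial markers r was 0.34 (permutation test, two-sided, p = 0.135, adjusted p = 0.539) and rho was 0.34 (adjusted p = 0.472), and r was 0.39 without the 2 farthest mice. Within the liver division it was 0.64 among the 13 libraries with fewer liver transcripts and -0.34 among the other 8, so the relation did not hold in both. For the 3 T cell markers fitted r was -0.02 (rho = 0.04, adjusted p = 0.957), and for the liver genes it was 0.40 (adjusted p = 0.435), with 0.25 and 0.24 within the division. The partner genes had r = -0.40 (adjusted p = 0.435), which was -0.21 without the 2 farthest mice. It was -0.65 among the 13 libraries and 0.08 among the 8.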

How the data were processed

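Per the labels and the methods, the authors used fastp for trimming, RNA STAR for alignment to GRCm39, and featureCounts for counting on genes. Versions, the annotation, strand and the counting of mates are not given in the sources used here. The deposited values are counts of reads per gene, and a second table, labelled as normalized, was equal to it in all 857913 values and was not used. Groups came from the sample titles. The members and gene lists were chosen with earlier results of these data known.

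Counts were fitted with edgeR 4.0.16 in R 4.3.3 (TMM, filterByExpr, 1 quasi-likelihood model of 21 libraries, 16129 genes), with Benjamini-Hochberg adjustment over all of them. Genes were called at an adjusted p-value under 0.05 and a log2 fold change over 0.25 in either direction. Standard errors are the log2 fold change divided by the root of F. On simulated data for Active against Inactive (15962 genes), 58.0% of 100 genes changed 1.5-fold and 78.6% of 98 changed 2-fold were recovered, with 3 false calls. Smaller changes, such as that of 1.22-fold for Gimap6 in this comparison, were not simulated, so their recovery is not known. Normalized counts are counts divided by the size factors of DESeq2 1.42.0, which was also run as an alternative. The other alternatives were other scalings and filters, a replicate block, the liver division, and each library left out. Intervals and limits at a count of 0 cover counting error only. The labels number the mice of each group, and p-values measure the spread between them. Positions and sequences come from GRCm39 with GENCODE M39, in which 32487 of the 40853 symbols matched. Similar transcripts were searched with blastn 2.17.0. Correlations used 100000 permutations over all 21 mice, made after subtraction of the group means, for which the p-values make no allowance.

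Named genes were the 8 members, the 10 tested genes most like their mean profile, 5 flanking protein-coding genes on each side, list genes past the threshold, and up to 4 genes of a list with the highest level. Exceptions are stated where they occur.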

Additional observations from a re-analysis of the deposited data

Results flagged for a closer look

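Of the 21 sets of 7 mice formed by 7 members and 3 groups, 1 held a mouse far from the others. In the Activity Reduction group, replicate 7 had 321.3 normalized counts of Gimap8, and its gap to the next mouse was 0.62 of the whole range of that group, above Dixon's critical value for 7 values. Chance flags about 1 in 20 such sets. This library is also 1 of the 3 in which Gimap7 was counted.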

How the results depend on the processing

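The median log2 fold change of the members kept its sign under all 10 alternatives in each comparison. It ran from 0.21 to 0.32 for Active against Inactive and from -0.38 to -0.28 for Activity Reduction against Active. For Activity Reduction against Inactive it ran from -0.13 to -0.03. These medians were not all over the same members. With DESeq2 and without a filter on low counts they covered 8 members, Gimap7 at its limit of detection included. With counts halved they covered 6 members, without Gimap3, and the value of -0.03 came from that setting. Members passing the thresholds went from 0 to 1, Gimap6, with DESeq2 on the 3 groups and on the 2 groups compared (Active against Inactive, and Activity Reduction against Active), and for Activity Reduction against Active with DESeq2's size factors in edgeR and with counts halved and rounded up, a setting chosen after seeing the data. Gimap6 then had adjusted p-values of 0.0437 and 0.0494 (edgeR with Benjamini-Hochberg adjustment). The count of all transcripts passing was 57 and 75 with DESeq2 on 3 and on 2 groups for Active against Inactive, and 117 and 132 for Activity Reduction against Active, where it was 1 with DESeq2's size factors and 5 with halved counts. For Activity Reduction against Inactive it was 23 and 44 with DESeq2, 0 with DESeq2's size factors, 5 with library totals alone, 1 with the liver division in the model and 0 among libraries with fewer liver transcripts. The cause was not tested.

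With single libraries left out, members passing ranged from 0 to 0 for Active against Inactive and for Activity Reduction against Inactive, and from 0 to 1 for Activity Reduction against Active, where Gimap6 passed without Active replicate 3, Active replicate 7, Activity Reduction replicate 7 or Inactive replicate 7 (log2 fold changes of -0.38, -0.40, -0.41 and -0.38). All transcripts passing ranged from 0 to 1, from 0 to 6 and from 0 to 9 in the same order of comparisons. Of the single members, Gimap4 and Gimap9 changed sign for Activity Reduction against Inactive, and Gimap9 also for both other comparisons among libraries with fewer liver transcripts (-0.15 and 0.09).

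The groups share replicate numbers, and the labels do not say that these pair the mice. Of 21 same-numbered pairs, 7 had deviations correlated above 0.1. Their median was 0.03, beside -0.01 over the 126 other pairs, and 3 of 21 libraries correlated best with their own number. This check cannot exclude a pairing. With the replicate block, 0 members passed, the medians were 0.32, -0.38 and -0.08, and 4 transcripts passed for Activity Reduction against Inactive in place of 2.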

Other observations

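The transcripts whose deviations from the group means were most like the mean profile of the 7 members over the 21 libraries were Cnn2 (r = 0.81), Tpm4 (0.77), Bcl6b (0.75), Ier5l (0.72), Insc (0.72), Gm41352 (0.72), Psmb8 (0.71), Zfp219 (0.71), Cox15 (0.71) and Gm16008 (0.70). Cnn2 and Tpm4 encode actin-binding proteins of non-muscle and smooth muscle cells, and Psmb8 encodes a subunit of the immunoproteasome. These are the highest values among all genes tested other than the members, the points share library and depth, and no test is attached.

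Low counts were more often even than odd. Of values from 1 to 10, 69.4% were even, and the share was 62.9% from 11 to 50, 56.5% from 51 to 200 and 52.0% above 200 up to 1000. Gimap9 was even in 20 of 21 libraries, Gimap3 in 16 of 21 and Gimap7 in all 3 libraries with a count. If mates were counted separately, low counts stand for fewer fragments than their size shows, and limits at a count of 0 are higher. How mates of a read pair were counted is not given in the sources used here.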
